A study of Mus musculus with 38 samples.

Results

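The 8 genes described here, *Ralyl*, *C530005A16Rik*, *Kifc2*, *Prph*, *Podxl2*, *Stoml3*, *Sv2c* and *Papss2*, code for no neuropeptide and were chosen on measured values, because their signal in the hypothalamus was lower in mice injected with a huntingtin (HTT) fragment than in uninjected mice. They are 8 of the 19937 gene symbols that a probe set with 1 symbol represented on the Affymetrix arrays used (Mouse Gene ST), with 38 mice in all and an array for each. The injected mice were wild-type FVB/N females given, in both sides of the hypothalamus at 8 weeks of age, an AAV vector of serotype 5 for an HTT fragment of 853 amino acids under the human Synapsin promoter, which is active in neurons. The fragment held 18 CAG repeats in 5 mice (AAV-HTT853-18Q, here 18Q) and 79 CAG repeats in 8 mice (AAV-HTT853-79Q, here 79Q), and tissue was taken 4 weeks later, at 12 weeks of age. The reference was 5 uninjected wild-type mice of the same age (Control), and no group received a vector without HTT, so that the effects of the fragment, the vector and the surgery cannot be told apart. The question put to the 8 genes was whether BACHD mice, which carry full-length human HTT with 97 CAG repeats in all tissues and were not injected, had lower levels too. BACHD mice were compared with wild-type (WT) females of the same FVB/N background at 2 months (6 BACHD and 6 WT) and at 10 months of age (5 BACHD and 3 WT), and the rule that chose the genes used no value of these 20 arrays, although results of all 38 were known when it was written.

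The polyglutamine stretch of HTT is encoded by its CAG repeat, and a long repeat causes Huntington's disease, in which the hypothalamus is affected beside the striatum and cortex. The 8 genes belong to different parts of the cell. *Ralyl* codes for an RNA-binding protein of the RALY family, and *C530005A16Rik* is annotated as a long non-coding RNA. *Kifc2* codes for a kinesin motor with its motor domain at the C-terminal end, which in mice is found in neurons, and *Prph* for peripherin, an intermediate filament protein of peripheral and some central neurons. *Podxl2* codes for endoglycan, a sialomucin of the CD34 family at the cell surface, *Stoml3* for a stomatin-like membrane protein that tunes mechanically gated channels in mouse sensory neurons, and *Sv2c* for a glycoprotein of synaptic vesicles. *Papss2* codes for an enzyme that makes PAPS, the sulfate donor for sulfotransferases. In bulk tissue, fewer cells of a type and less RNA per cell cannot be told apart.

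RefSeq promoter windows (build GRCm38.p6) were found for 6 of the 8 genes. *Prph*, *Stoml3* and *Sv2c* are shown, because they are the members whose relation to neighbouring genes or to BACHD mice is described further on, and because their promoters differ in type. Each line gives the 100 bases before an annotated start, 5′ to 3′ on the strand of the gene. Capitals mark a TATAAA motif in *Prph* and CG dinucleotides in *Stoml3* and *Sv2c*.
Prph, chr15:99055074-99055173, plus strand: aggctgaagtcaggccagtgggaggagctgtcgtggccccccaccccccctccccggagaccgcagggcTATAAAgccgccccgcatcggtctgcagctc
Stoml3, chr3:53488607-53488706, plus strand: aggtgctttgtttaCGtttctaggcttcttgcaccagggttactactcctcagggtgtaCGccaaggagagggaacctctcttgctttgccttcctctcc
Sv2c, chr13:96132578-96132677, minus strand: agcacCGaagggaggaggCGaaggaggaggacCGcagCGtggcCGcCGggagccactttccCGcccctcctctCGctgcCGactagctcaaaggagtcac
The *Prph* window lies inside the annotated gene, which spans bases 99053579 to 99058978, so the start used is not the first base of the gene. The TATAAA motif of *Prph* began 31 bases before that start. TATAAA was searched on both strands in the 60 bases before the start, and 3.92% of 32851 windows of the same length held it, whereas no window of the other 5 genes did. Over 250 bases before the start, *Sv2c* had 26 CG dinucleotides and *Stoml3* had 2, against a median of 6 over all windows. Windows of *Podxl2*, which has 3 annotated starts, held 9 to 42, and those of *Papss2*, which has 2, held 1 and 24. A match of letters describes the window only.

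Over the whole series, array medians lay between 7.16 and 7.46 on the log2 intensity scale. No probe set value was identical (to 1e-10 on the log2 scale) between arrays of different sets (AAV, 2 months, 10 months), whereas pairs shared 0 to 9 values within the AAV set, 0 to 17 within the 2 months set and 5 to 22 within the 10 months set. Whether the sets were normalized together is not given in the sources used here, and levels are compared only within a set. Of 10 hypothalamic marker genes, 8 were above the array median on all 38 arrays, *Nr5a1* on 36 and *Pomc* on 31. The mouse *Htt* probe set, which was not designed for the human transgenes, differed by −0.01 in 18Q vs. Control, 0.02 in 79Q vs. Control, −0.07 in BACHD vs. WT at 2 months and 0.10 at 10 months (log2), with no adjusted p under 0.05 (limma). The array of 18Q replicate 3 had the lowest hypothalamic marker score of the AAV set, 9.53, against 9.69 to 10.41 on the other injected arrays and 10.25 to 10.38 on Control arrays, and the highest thalamic marker score, 9.49. At 2 months the thalamic marker score (mean log2 of 10 genes) spread from 8.69 to 10.63 in BACHD and from 8.89 to 10.67 in WT mice, and it was over 9.5 in 3 BACHD and 4 WT mice. Pituitary markers were highest in BACHD replicate 4 (9.41) and WT replicate 5 (10.56) of that age.

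In both injected groups all 8 genes had lower means than in Control mice. The differences that selected them are given as a description, without a test. They lay between −0.57 and −0.12 on the log2 scale in 18Q mice and between −0.60 and −0.18 in 79Q mice, with a median of −0.32 in each, against medians over all 34760 probe sets of −0.01 in 18Q and −0.02 in 79Q. The same 5 Control mice entered both comparisons. Of the 8 genes, 4 were below the adjusted threshold of 0.05 in 18Q vs. Control, where 0.308% of all probe sets were lower by that rule, and 7 in 79Q vs. Control, where 0.581% were. These counts follow from the choice of the genes. Without 79Q replicate 8 or Control replicate 4, 5 or 7 the count in 79Q was 4, and without Control replicate 2 it was 3. The groups did not overlap for 4 genes in 18Q (1.5% of all probe sets) and for 6 genes in 79Q (0.938%).

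**Figure D1:**
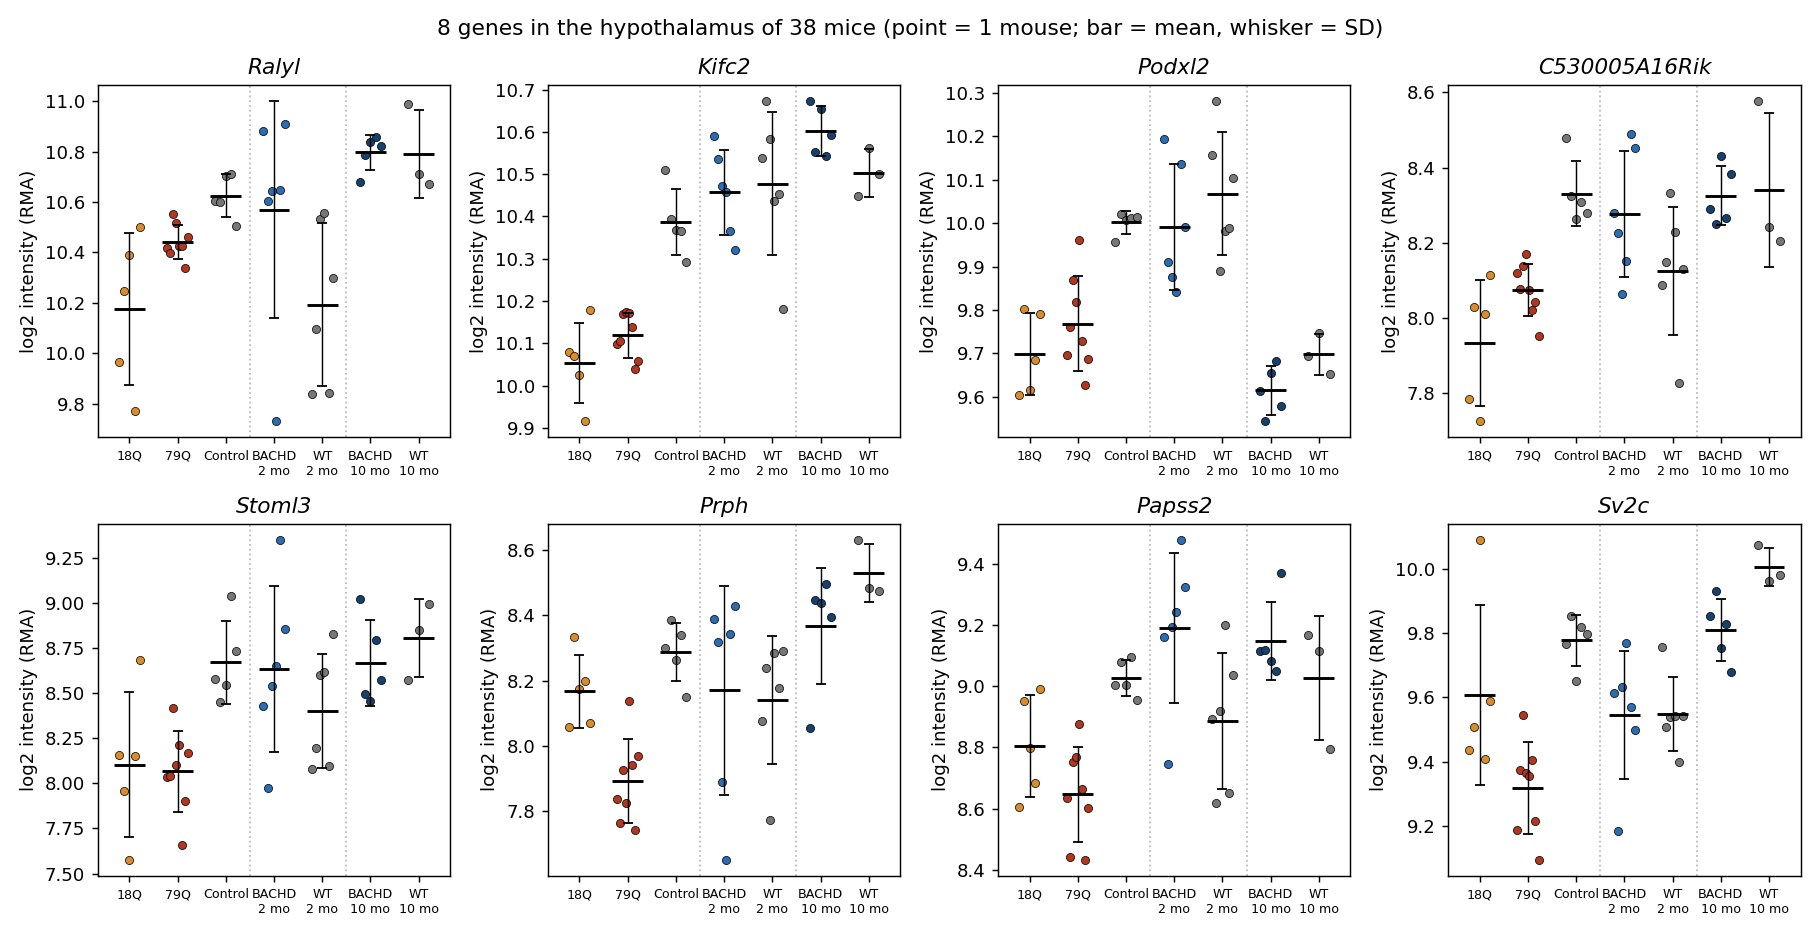
Log2 intensity (RMA) of the 8 genes on the vertical axis in 18Q, 79Q and Control mice and in BACHD and WT mice at 2 and 10 months, 1 point per mouse, with the mean (bar) and SD (whisker); dotted lines separate the AAV, 2 months and 10 months sets. The means of both injected groups sit below that of Control in every panel, with 5 of 5 18Q mice and 8 of 8 79Q mice below the lowest Control mouse for *Kifc2* and *C530005A16Rik*, while BACHD and WT mice overlap in every panel but that of *Sv2c* at 10 months.

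*Kifc2* and *C530005A16Rik* were low in both injected groups. For *Kifc2*, log2 intensities were 10.08, 10.07, 10.03, 9.92 and 10.18 in 18Q mice, 10.04 to 10.18 (median 10.12) in 79Q mice, and 10.51, 10.39, 10.37, 10.37 and 10.29 in Control mice. Every injected mouse was below every Control mouse, and the difference was −0.33 (SE 0.05) in 18Q and −0.27 (SE 0.04) in 79Q, a linear signal 20.6% lower in 18Q and 16.9% lower in 79Q. Among the 19937 genes, *Kifc2* ranked 1 by p value (limma) among those below Control in 18Q and 8 in 79Q. The same comparisons chose the gene, so these ranks are a description and no evidence about it. *Kifc2* lies on chromosome 15 and overlaps *Cyhr1* and *Foxh1* in the annotation, and which of these transcripts its probes read was not analysed here. For *C530005A16Rik*, the 18Q values of 7.79, 8.03, 7.73, 8.01 and 8.11 and the 79Q values of 7.95 to 8.17 (median 8.08) were below the Control values of 8.48, 8.32, 8.26, 8.31 and 8.28. The log2 difference was −0.40 (SE 0.07) in 18Q and −0.26 (SE 0.06) in 79Q. This non-coding transcript overlaps *Gpbp1l1* and *Ccdc17* on chromosome 4.

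*Podxl2* and *Stoml3*, the genes of membrane proteins, showed 2 different spreads between mice. *Podxl2* read 9.60 to 9.80 in 18Q mice and 9.63 to 9.96 in 79Q mice, against 9.96 to 10.02 in Control mice, which lay closer together (SD 0.03) than either injected group (SD 0.09 in 18Q and 0.11 in 79Q). Its log2 difference was −0.30 (SE 0.06) in 18Q and −0.23 (SE 0.05) in 79Q. *Stoml3* read 8.16, 7.96, 7.58, 8.15 and 8.68 in 18Q mice and 7.66 to 8.42 (median 8.07) in 79Q mice, against 8.58, 8.45, 8.55, 9.04 and 8.74 in Control mice. The 79Q mice were all below Control, whereas 18Q replicate 6 was within the Control range. *Stoml3* had the largest log2 differences of the 8 genes, −0.57 (SE 0.17) in 18Q and −0.60 (SE 0.15) in 79Q, a linear signal 32.4% lower in 18Q and 34.1% lower in 79Q. Without 18Q replicate 3, the array with the low hypothalamic score, the difference in 18Q was −0.43.

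*Ralyl* had a lower mean in 18Q than in 79Q mice, and the 2 groups overlapped. It read 9.96, 10.25, 10.39, 9.77 and 10.50 in 18Q mice and 10.34 to 10.55 (median 10.43) in 79Q mice, against 10.61, 10.60, 10.70, 10.71 and 10.50 in Control mice. Replicates 1 and 4 of 18Q were the lowest, and 18Q varied more (SD 0.30) than 79Q (SD 0.07) or Control (SD 0.09). The log2 difference from Control was −0.45 (SE 0.10) in 18Q and −0.18 (SE 0.09) in 79Q, and 79Q minus 18Q was 0.27 (SE 0.09).

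*Prph*, *Sv2c* and *Papss2* had larger mean differences from Control in 79Q than in 18Q mice. *Prph* read 8.06, 8.33, 8.17, 8.20 and 8.07 in 18Q mice, 7.74 to 8.14 (median 7.88) in 79Q mice and 8.30, 8.39, 8.26, 8.34 and 8.15 in Control mice. The 18Q mice overlapped Control and the 79Q mice did not. The log2 difference from Control was −0.12 (SE 0.07) in 18Q and −0.39 (SE 0.06) in 79Q, and 79Q minus 18Q was −0.27 (SE 0.06). *Sv2c* read 9.44, 9.51, 10.09, 9.41 and 9.59 in 18Q mice, 9.09 to 9.55 (median 9.36) in 79Q mice and 9.77, 9.85, 9.65, 9.82 and 9.80 in Control mice. The highest AAV value of *Sv2c*, 10.09, came from 18Q replicate 3. The log2 difference from Control was −0.17 (SE 0.11) in 18Q, −0.29 without that array, and −0.46 (SE 0.10) in 79Q, and 79Q minus 18Q was −0.29 (SE 0.10) over all arrays. *Papss2* read 8.60, 8.95, 8.80, 8.68 and 8.99 in 18Q mice, 8.43 to 8.88 (median 8.65) in 79Q mice and 9.00, 9.08, 9.00, 9.09 and 8.95 in Control mice. Of the 18Q mice 4 of 5, and all 79Q mice, were below the lowest Control mouse, and the log2 difference was −0.22 (SE 0.09) in 18Q and −0.38 (SE 0.08) in 79Q. Since the 2 injected groups took part in the choice of the genes, 79Q minus 18Q was not tested for them. Over all 34760 probe sets, 0 passed the adjusted threshold in 79Q vs. 18Q (limma). The 79Q and 18Q mice overlapped for each of the 8 genes, so no effect of repeat length is read from these differences.

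Cell type markers moved in the same injected mice. Of all probe sets, 55% were below Control in 18Q and 57.8% in 79Q. All 6 microglia and macrophage markers were above Control in both injected groups, and their score (mean log2) spanned 8.65 to 9.11 for the 18Q mice, 8.58 to 9.31 for the 79Q mice and 8.15 to 8.25 for Control mice, and 4 of 6 passed the adjusted threshold in each injected group. Of 10 pan-neuronal markers, all 10 in 18Q and 8 in 79Q were below Control (median log2 difference −0.08 in 18Q and −0.07 in 79Q), and 1 in 18Q and 0 in 79Q passed. The pan-neuronal score spanned 11.75 to 11.80 for the 18Q mice, 11.76 to 11.86 for the 79Q mice and 11.84 to 11.89 for Control mice. All 10 hypothalamic markers were below Control in both injected groups, with a median log2 difference of −0.18 in 18Q and −0.43 in 79Q, of which 0 in 18Q and 1 in 79Q passed. Their score spanned 9.53 to 10.41 for the 18Q mice, 9.69 to 10.20 for the 79Q mice and 10.25 to 10.38 for Control mice. Of 6 astrocyte markers 4 were above Control in each injected group, and 2 in 18Q and 0 in 79Q passed. Of 6 pituitary markers, 5 in 18Q and 3 in 79Q were above Control, and 0 passed in either group. Their score spanned 7.25 to 8.77 for the 18Q mice, 6.92 to 8.47 for the 79Q mice and 6.76 to 7.35 for Control mice. The part of all these markers in the values of the 8 genes was not tested.

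In BACHD mice at 2 months none of the 8 genes passed the adjusted threshold, and 3 of 8 were below WT, against 65.7% of all probe sets. The median log2 difference of the 8 genes was 0.09, against −0.03 over all probe sets. By limma, 0 of 34760 probe sets passed the adjusted threshold at this age (0% called), 3.22% were lower with an unadjusted p under 0.05 and 0.872% were higher. Among the 8 genes 0 were lower and 1, *Papss2*, was higher by the unadjusted rule.

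*Papss2* and *Ralyl* had the largest BACHD differences at 2 months, in the direction opposite to that of the injected mice. *Papss2* read 8.75 to 9.48 (median 9.22) in BACHD and 8.62 to 9.20 (median 8.90) in WT mice. 5 of 6 BACHD mice were above the WT mean and the groups overlapped, with a log2 difference of 0.30 (95% interval 0.03 to 0.57), an adjusted p of 0.939 (limma) and an exact two-sided permutation p of 0.0563. *Ralyl* read 9.73 to 10.91 (median 10.65) in BACHD and 9.84 to 10.55 (median 10.20) in WT mice. The low values were those of BACHD replicate 4 and WT replicates 1 and 5. BACHD replicate 4 and WT replicate 5 were the arrays highest in pituitary markers, whereas WT replicate 1, the lowest WT mouse, had a pituitary score of 7.43. The log2 difference was 0.38 (95% interval −0.05 to 0.80, exact permutation p = 0.117, adjusted p = 0.939 by limma), and 0.47 without the 2 arrays highest in pituitary markers. These 2 arrays were picked after the data had been seen, and the part of pituitary tissue in the values was not tested.

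The other 6 genes overlapped WT at 2 months. The log2 differences were 0.23 for *Stoml3* (95% interval −0.21 to 0.67, and 0.086 without BACHD replicate 5), 0.15 for *C530005A16Rik*, 0.03 for *Prph*, −0.003 for *Sv2c*, −0.02 for *Kifc2* and −0.08 for *Podxl2*, and exact two-sided permutation p values ranged upwards from 0.156. With 6 against 6 mice the smallest p of that test is 0.00216. *Kifc2*, with 10.32 to 10.59 in BACHD and 10.18 to 10.67 in WT mice, had a 95% interval of −0.20 to 0.15.

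The BACHD differences at 2 months were also taken separately in mice with a thalamic marker score under and over 9.5. Among the 5 mice with a score under 9.5 (3 BACHD and 2 WT), all 8 genes were above WT, with log2 differences of 0.74 for *Ralyl*, 0.48 for *Papss2* and 0.43 for *C530005A16Rik* and a median of 0.28. WT replicate 5, the array highest in pituitary markers, was 1 of the 2 WT mice, and without it all 8 were still above the remaining WT mouse, with 0.52 for *Ralyl*, 0.28 for *Papss2*, 0.28 for *C530005A16Rik* and 0.052 for *Stoml3*, which had been 0.42. Among the 7 mice with a score over 9.5 (3 BACHD and 4 WT), 5 of 8 were below WT and the median was −0.05. These sets were formed after the data had been seen, and the part of the dissected tissue in the values was not tested.

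**Figure D2:**
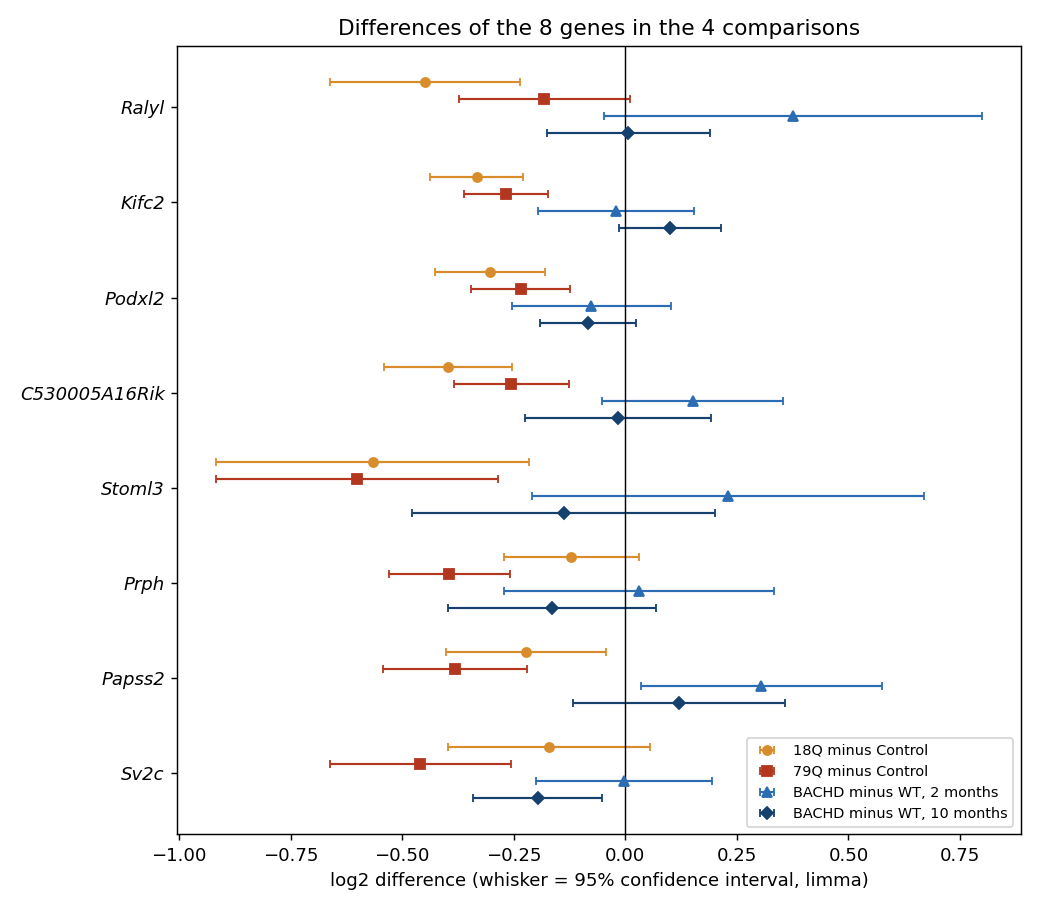
Log2 differences (horizontal axis) of the 8 genes for 18Q minus Control, 79Q minus Control and BACHD minus WT at 2 and 10 months, with 95% confidence intervals from limma. The injected groups lie between −0.60 and −0.12, while the BACHD differences lie on both sides of 0, and of those only the intervals of *Papss2* at 2 months and of *Sv2c* at 10 months leave out 0.

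At 10 months 5 of the 8 genes were below WT in BACHD mice, against 46.1% of all probe sets, and the median log2 difference was −0.05, against 0.01 over all probe sets. No gene passed the adjusted threshold, nor did any of the 34760 probe sets by limma (0% called). By the unadjusted rule 1 of the 8, *Sv2c*, was lower, where 2% of all probe sets were lower, and 0 were higher, where 2.55% were.

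*Sv2c* read 9.85, 9.93, 9.75, 9.83 and 9.68 in BACHD and 10.07, 9.96 and 9.98 in WT mice at 10 months. All 5 BACHD mice were below all 3 WT mice, a pattern that 1.56% of all probe sets had in the lower direction. The log2 difference was −0.20 (95% interval −0.34 to −0.05), with an exact two-sided permutation p of 0.0357, where 0.0179 is the smallest that 5 against 3 mice allow, and an adjusted p of 0.997 (limma). The unadjusted p by limma, 0.0141, was 0.0578 without WT replicate 1, 0.0885 with the replicate number as a block and 0.0648 with one fit over both ages. Leaving out any of the 8 arrays gave differences of −0.23 to −0.16. At 2 months *Sv2c* had read 9.19 to 9.77 in BACHD and 9.40 to 9.76 in WT mice, with overlapping groups.

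*Prph* and *Podxl2* were below the WT mean in 5 of 5 BACHD mice at 10 months, but the groups overlapped. *Prph* read 8.05, 8.45, 8.44, 8.50 and 8.40 in BACHD and 8.63, 8.48 and 8.47 in WT mice. The log2 difference was −0.16 (95% interval −0.40 to 0.07, exact permutation p = 0.214, adjusted p = 0.997 by limma) and −0.09 without BACHD replicate 1, the lowest mouse. *Podxl2* read 9.61, 9.54, 9.65, 9.68 and 9.58 in BACHD and 9.69, 9.75 and 9.65 in WT mice, with a log2 difference of −0.08 (95% interval −0.19 to 0.03, exact permutation p = 0.107).

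*Kifc2* and *Papss2* were above the WT mean in all 5 BACHD mice. *Kifc2* read 10.67, 10.55, 10.65, 10.54 and 10.59 in BACHD and 10.45, 10.56 and 10.50 in WT mice, a log2 difference of 0.10 (95% interval −0.01 to 0.21, exact permutation p = 0.0893). *Papss2* read 9.11, 9.12, 9.08, 9.05 and 9.37 in BACHD and 9.17, 9.11 and 8.79 in WT mice, a log2 difference of 0.12 (exact permutation p = 0.5), and 0.0053 without WT replicate 3, the lowest mouse. The remaining differences were −0.14 for *Stoml3* (−0.042 without WT replicate 3 and −0.25 without WT replicate 1), −0.02 for *C530005A16Rik* and 0.01 for *Ralyl*, with overlapping groups. At this age all 10 thalamic markers were above WT in BACHD mice (median log2 difference 0.38), and their part in the values was not tested.

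Between the ages, the difference of BACHD from WT was lower at 10 than at 2 months for 7 of the 8 genes, all but *Kifc2*, against 35.4% of all probe sets, with a median of −0.19 on the log2 scale against 0.04 over all probe sets. The largest were −0.37 for *Ralyl* (95% interval −0.93 to 0.19) and −0.37 for *Stoml3* (−0.99 to 0.25). None passed in the age by genotype fit over 20 arrays (adjusted p of 0.9996 for each, limma), 0 of the 8 had an unadjusted p under 0.05, and 2.62% of all probe sets did. No probe set passed the adjusted threshold. Thalamic markers changed the other way between the ages. Of 10, 9 were below WT at 2 months (median log2 difference −0.33) and all 10 were above WT at 10 months (0.38). In the age by genotype fit all 10 were above 0, with a median of 0.66. Their part in the values of the 8 genes was not tested.

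Per mouse, the mean deviation of the 8 genes from the mean of the matching uninjected or WT group was −0.43 to −0.15 in 18Q and −0.47 to −0.22 in 79Q, against −0.05 to 0.07 in Control mice (log2). At least 7 of the 8 genes were below the Control mean in each 18Q mouse and all 8 in each 79Q mouse. At 2 months the same mean deviation was −0.04 to 0.32 in BACHD and −0.18 to 0.13 in WT mice, and at 10 months −0.07 to −0.02 in BACHD and −0.05 to 0.06 in WT mice. The injected mice are separated from Control by the choice of the genes, whereas BACHD mice overlapped WT mice at both ages.

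Over 8 lists, 47 genes were measured. The lists hold families or pathways of the 8 genes, and histamine neuron genes, which are neither. The adjusted threshold was passed by 3 of the 47 in 18Q vs. Control, 3 in 79Q vs. Control and 0 in BACHD mice at either age (limma). Over all probe sets 1.81% were higher by the adjusted rule in 18Q and 1.49% in 79Q, and 0.308% were lower in 18Q and 0.581% in 79Q. With an unadjusted p under 0.05 (limma), 8 of the 47 were lower and 4 higher in 18Q, and 14 were lower and 4 higher in 79Q. Of all 34760 probe sets, 2258 were lower and 2138 higher in 18Q, and 2888 were lower and 1964 higher in 79Q. In BACHD mice 1 was lower and 0 higher at 2 months, and 2 were lower and 1 higher at 10 months. Among intermediate filament genes, *Gfap* and *Vim*, which code for the filaments of astrocytes and related cells, rose in 18Q mice, with log2 differences of 0.77 for *Gfap* (adjusted p = 0.00494) and 0.50 for *Vim* (adjusted p = 0.0145), whereas the neurofilament genes *Nefl*, *Nefm* and *Nefh* had log2 differences of −0.10, −0.12 and −0.16 in 18Q and −0.04, 0.03 and −0.19 in 79Q, none of which passed. In 79Q mice *Gfap* (0.46, adjusted p = 0.0844) and *Vim* (0.37, adjusted p = 0.0539) did not pass over all probe sets, and both passed as higher with dim probe sets (mean under the median of all) removed. *Cd34*, the founding member of the sialomucin family of *Podxl2*, rose by 0.40 (adjusted p = 0.0193) in 18Q and by 0.35 (adjusted p = 0.0245) in 79Q mice, opposite in sign to *Podxl2*, and *Podxl* had 0.22 in 18Q and 0.13 in 79Q. All 4 endothelial markers, the class of cells where *Cd34* is known to be high, were above Control in both groups, of which *Cldn5* passed in 18Q.

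Among the other lists, 1 or 0 genes passed. Of 9 kinesin genes, *Kif3a*, a subunit of kinesin-2, fell in 79Q mice (log2 difference −0.15, adjusted p = 0.0414). All 9 measured genes of SV2 and other synaptic vesicle proteins were below Control in both injected groups, but none passed. Of all probe sets, 55% were below Control in 18Q and 57.8% in 79Q. The list medians were −0.10 in 18Q and −0.09 in 79Q. *Sv2a* (−0.10 in 18Q, −0.07 in 79Q) and *Sv2b* (−0.12 in 18Q, −0.15 in 79Q) had smaller differences than *Sv2c* in 79Q. *Papss1*, the other PAPS synthase gene, had differences of −0.02 in 18Q and 0.03 in 79Q. *Raly* had −0.002 in 18Q and −0.03 in 79Q. Of the stomatin family, *Stom* had 0.13 in 18Q and −0.01 in 79Q, *Stoml1* had −0.01 in 18Q and 0.0002 in 79Q, and *Stoml2* had −0.11 in 18Q and −0.16 in 79Q (adjusted p = 0.0787). None of these passed over all probe sets, and *Stoml2* passed as lower in 79Q with dim probe sets removed.

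**Figure D3:**
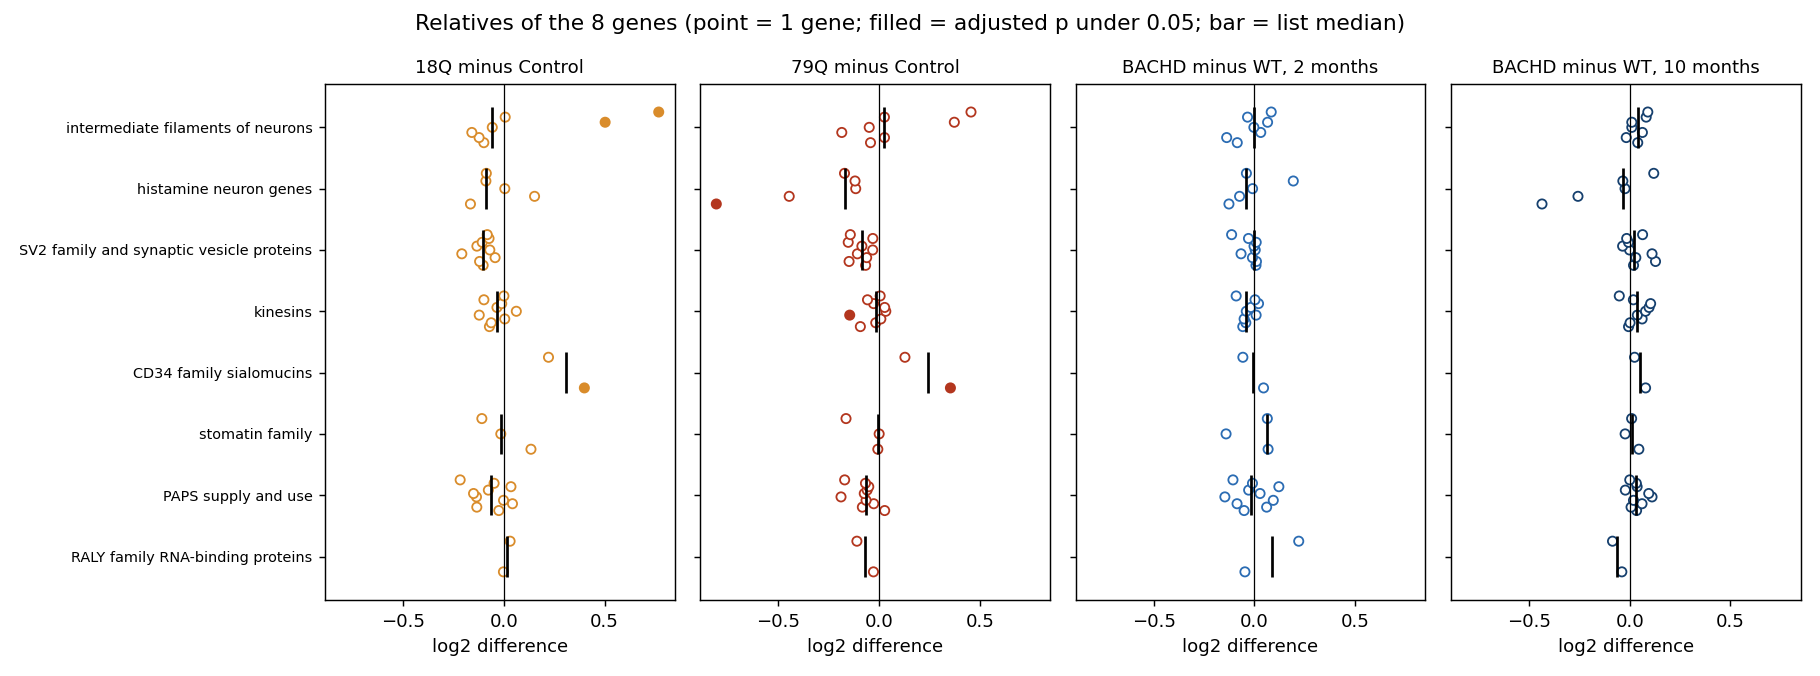
Log2 differences (horizontal axis) of 47 genes by list (rows) in 18Q minus Control, 79Q minus Control and BACHD minus WT at 2 and 10 months. The lists are families or pathways of the 8 genes, and histamine neuron genes, which are neither. Each point is a gene, filled where the adjusted p (limma) is under 0.05, and bars are list medians. *Gfap*, *Vim* and *Cd34* are filled to the right in 18Q, *Cd34* to the right and *Hdc* and *Kif3a* to the left in 79Q, and no point is filled in BACHD mice.

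After group means had been taken out, the 8 genes varied together only weakly over all 38 mice on the deposited values, while r differed between the sets of arrays. Over the 28 pairs and 38 mice, 22 correlations were above 0 with a median r of 0.19, and none passed after Benjamini-Hochberg adjustment over the 28 pairs. The 3 pairs with the smallest permutation p were *Podxl2* and *Prph* (r = 0.55, rho = 0.46, adjusted p = 0.0989), *Stoml3* and *Papss2* (r = 0.51, rho = 0.38, adjusted p = 0.0989) and *C530005A16Rik* and *Papss2* (r = 0.49, rho = 0.50, adjusted p = 0.0989). Their adjusted p by Spearman's rho were 0.0918, 0.186 and 0.084 in that order. With each array centred on its median, r of these pairs rose to 0.60, 0.61 and 0.64, and no p was computed. With that scaling *Kifc2* and *Prph* (−0.20) and *Prph* and *Sv2c* (−0.11) stayed below 0. Without the 2 mice farthest from the median on the x axis r of the 3 pairs was 0.52, 0.32 and 0.43. Within the AAV, 2 months and 10 months sets it was 0.54, 0.63 and 0.11 for the first pair, 0.32, 0.86 and −0.46 for the second, and 0.43, 0.51 and 0.56 for the third. The highest r within the AAV set was 0.80, for *Podxl2* and *Papss2*, which had −0.006 at 2 months and −0.02 at 10 months. The r within a set was not tested.

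For none of the 8 genes was the gene nearest in its variation between mice another of the 8. Among 19936 other genes, the nearest to *Stoml3* were *Meig1* (r = 0.89) and *Fam183b* (r = 0.89), and both kept an r of at least 0.88 within each set of arrays. *Fam183b* and *Meig1* had log2 differences of −0.07 and −0.19 in 18Q, −0.10 and −0.24 in 79Q, and 0.05 and 0.28 in BACHD at 2 months, without passing. A list of 12 ependymal and motile cilia genes was written after these neighbours were seen. Of these, 9 were below Control in 18Q (median −0.15), against 55% of all probe sets. In 79Q 10 were below (median −0.17), against 57.8%, and none passed in either group. That list's score spanned 7.18 to 7.70 for the 18Q mice, 7.36 to 7.58 for the 79Q mice and 7.54 to 7.68 for Control mice, and its part in *Stoml3* was not tested.

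The nearest gene to *Prph* was *Hdc* (r = 0.86), which codes for histidine decarboxylase, the enzyme that makes histamine in neurons of the tuberomammillary nucleus, with r of 0.79, 0.88 and 0.97 in the AAV, 2 months and 10 months sets. *Hdc* read 9.02, 9.59, 9.31, 9.44 and 9.21 in 18Q mice, 8.20 to 9.28 (median 8.65) in 79Q mice and 9.39, 9.33, 9.62, 9.65 and 9.39 in Control mice. It fell in 79Q mice (log2 difference −0.81, adjusted p = 0.00373), while 18Q mice had a difference of −0.17 (SE 0.16). Over the 5 measured histamine neuron genes, 5 were below Control in 79Q and 3 in 18Q, and only *Hdc* passed. Of all probe sets, 57.8% were below Control in 79Q and 55% in 18Q. In BACHD mice at 10 months *Hdc* read 8.66, 9.26, 9.21, 9.38 and 9.24, against 9.88, 9.45 and 9.42 in WT mice. The groups did not overlap, and BACHD replicate 1 was the lowest mouse for both *Hdc* and *Prph* while WT replicate 1 was the highest for both. The log2 difference was −0.44 (exact permutation p = 0.0357, adjusted p = 0.997 by limma).

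*Sv2c* was nearest to *Th* (r = 0.68), the gene of tyrosine hydroxylase in catecholamine neurons, but r was 0.85 in the AAV set, 0.38 at 2 months and 0.21 at 10 months, and 0.42 without the 2 mice farthest from the median. 18Q replicate 3 was the highest AAV mouse for both (10.09 for *Sv2c* and 11.01 for *Th*). *Th* had log2 differences of 0.16 in 18Q, which was −0.08 without that array, −0.45 in 79Q (adjusted p = 0.21), 0.01 in BACHD at 2 months and −0.21 at 10 months (adjusted p = 0.997). The nearest genes of the others were *Tmbim6* and *Asb8* for *Ralyl* (r = 0.83 and 0.81), *Ggt7* and *Adam11* for *Kifc2* (0.78 and 0.77), *Smyd3* and *Tmem114* for *Podxl2* (0.75 each), *Samm50* and *L3hypdh* for *C530005A16Rik* (0.75 each), *Wif1* as the next for *Prph* (0.78), *Phyhipl* and *Zfp449* for *Papss2* (0.76 and 0.75) and *Dnajb11* as the next for *Sv2c* (0.68). Within the AAV, 2 months and 10 months sets r was 0.67, 0.93 and 0.20 for *Tmbim6*, 0.76, 0.86 and 0.29 for *Asb8*, and 0.38, 0.92 and 0.84 for *Ggt7*. It was 0.44, 0.93 and 0.84 for *Wif1*, and 0.72, 0.72 and 0.90 for *L3hypdh*. The correlations over 38 mice are descriptions, picked as the highest among 19936 genes. Whether differences in dissection between mice entered them was not tested.

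**Figure D4:**
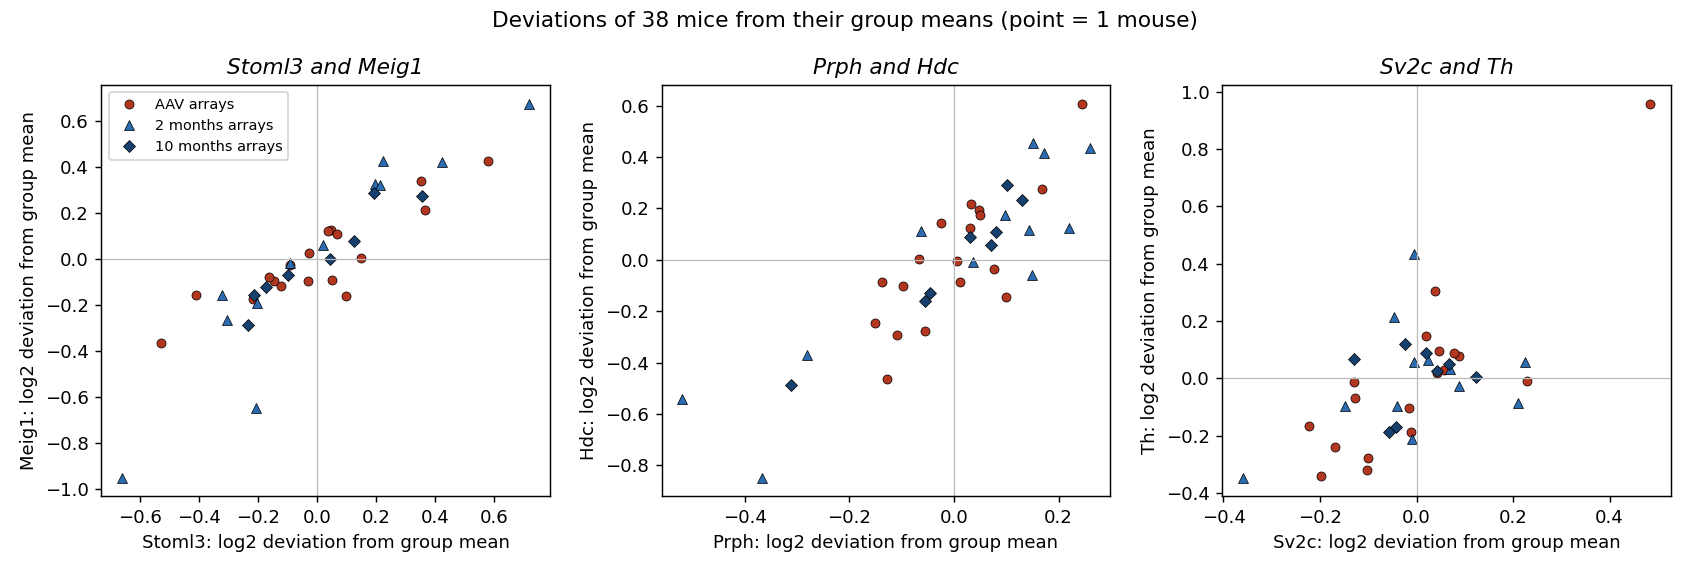
Deviation of each mouse from its group mean (log2) for *Stoml3* and *Meig1*, *Prph* and *Hdc*, and *Sv2c* and *Th*; each point is 1 of 38 mice and the marker gives its set of arrays. The first and second pair follow a line in all 3 sets (r of at least 0.79 in each), and the third pair rests on the AAV set (r = 0.85) with 1 mouse far above the rest.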

How the data were processed

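Dissected hypothalami were profiled on Affymetrix arrays (Mouse Gene ST), and per the study's methods samples with a low RNA integrity number were left out. The authors made the deposited log2 values from raw array files by RMA, which corrects background, equalizes the arrays' quantiles and summarizes probes by median polish (affy 1.70.0 under R 4.1.1; their tests used limma 3.48.3), with 34760 probe sets. These values were used unchanged, and arrays carry no read depth, so the number of mice limits the precision. Each of the 8 genes has 1 probe set. Groups came from the sample labels, and each array is a separate mouse. Differences were fitted on all probe sets by limma 3.58.1 under R 4.3.3 (default moderation), with Benjamini-Hochberg adjustment over all probe sets and a threshold of 0.05. The 18 AAV arrays were fitted together, each BACHD age alone, and both ages together for age by genotype. Exact two-sided permutation tests compared BACHD with WT for each gene. Permutations within groups, 100000 in number, tested correlations. On simulated data with 200 probe sets lowered by 0.5 log2 units, the fit found 118 at 2 months and 116 at 10 months. That shift is larger than the median difference of the 8 genes, −0.32 in each injected group. Noise was drawn separately for each probe set, without variation shared by a whole array, so these counts do not give the power for the 8 genes. Genes named are the 8, genes of the lists of relatives, histamine neurons and markers, *Htt* and the 2 nearest genes of each. The 8 genes and the lists were chosen with earlier results of these data known. *Lmx1a*, *Vamp2*, *Kifc1*, *Impad1*, *Ndst1* and *Agrp* were listed but not analysed here. Alternatives covered scaling, filtering, moderation, the replicate block and leaving out arrays.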

Additional observations from a re-analysis of the deposited data

Results flagged for a closer look

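In 6 of 48 sets of 4 to 10 mice (8 genes in 6 groups), 1 mouse stood apart from the others by Dixon's criterion, which chance meets in about 1 of 20 sets (2.4 of 48). *Ralyl* was 9.73 in BACHD replicate 4 at 2 months, against 10.60 in the next lowest mouse of that group. *Podxl2* was 9.96 in Control replicate 1, against 10.01 in the next lowest, a gap small beside the injected groups. *C530005A16Rik* was 8.48 in the same Control mouse, against 8.32 in the next highest. *Prph* was 8.05 in BACHD replicate 1 at 10 months, against 8.40 in the next lowest. *Papss2* was 9.37 in BACHD replicate 5 at 10 months, against 9.12 in the next highest. *Sv2c* was 10.09 in 18Q replicate 3, against 9.59 in the next highest. No gene moved one way in every BACHD mouse at 2 months and the other way in every BACHD mouse at 10 months.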

How the results depend on the processing

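Under no alternative did any of the 8 genes pass the adjusted threshold in BACHD mice at either age or in the age by genotype fit. At 2 months the count of genes below WT was 1 after median centring of the arrays, 0 without the 7 arrays with a thalamic marker score over 9.5 and 5 with only those 7, where the median difference was 0.28 without them; leaving out 1 array gave 2 to 4. The count higher by the unadjusted rule was 2 with one fit over both ages, 3 without the 7 arrays, 0 with only those 7, 0 by exact permutation, and 0 to 2 leaving out 1 array. At 10 months the count lower by the unadjusted rule was 0 with the replicate block, 0 with one fit over both ages and 0 to 1 leaving out 1 array, and the count higher was 1 with a trended, robust prior. For age by genotype the count lower by that rule was 0 to 1 leaving out 1 array. In 79Q vs. Control the count of the 8 genes past the adjusted threshold was 4 with the replicate block and 3 to 7 leaving out 1 array, and 3 relatives (*Cd34*, *Gfap* and *Vim*) were higher with dim probe sets removed. Same-numbered mice did not deviate together (r of −0.31 to 0.28 at 2 months and −0.16 to 0.09 at 10 months), so the replicate block stands as an alternative only.

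Small differences changed sign. At 2 months, *Kifc2* was 0.029 and *Sv2c* 0.046 after median centring of the arrays, and *Sv2c* was 0.019 with all 38 arrays quantile-normalized together. Without the 7 thalamic-high arrays *Kifc2* was 0.11, *Podxl2* 0.060 and *Sv2c* 0.090, and leaving out WT replicate 5 as well *Kifc2* was 0.24, *Podxl2* 0.0020 and *Sv2c* 0.018 (3 against 1 mouse). With only those 7 *C530005A16Rik* was −0.052 and *Prph* −0.14. At 10 months *Ralyl* was −0.0022 with centring, −0.0074 with joint quantile normalization and −0.022 with the replicate block. Leaving out 1 array gave −0.080 to 0.019 for *Kifc2*, −0.043 to 0.13 for *Prph* and −0.048 to 0.069 for *Sv2c* at 2 months, −0.054 to 0.11 for *Ralyl* and −0.084 to 0.10 for *C530005A16Rik* at 10 months, −0.050 to 0.033 for *Podxl2* in the age by genotype fit and −0.080 to 0.24 for *Th* in 18Q vs. Control. The r of *Stoml3* and *Papss2* was −0.46 within the 10 months arrays. The causes were not tested. Averaging several probe sets of a gene gave no separate value, since each of the 8 has 1. The sets of 2 months arrays and the values of *Th* without an array were chosen after seeing the data. With 5 against 3 mice at 10 months, the 95% interval was −0.48 to 0.20 for *Stoml3*, so a small difference of that gene was not detectable.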
